A study of Mus musculus with 18 samples.

Results

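The 3 RNP arrays of 17-day mouse testes were compared with the 3 polysome arrays of the same age, 6 of the 18 arrays of the series, over all 22626 probe sets that are not array controls. The members were picked by their labels, and earlier results of these data were known when the comparison was chosen. Testes came from CD1 mice, an outbred laboratory strain, at 17 days in every array compared, and no treatment or mutation is given. A cytoplasmic extract was spun through a sucrose gradient of 10 to 30% and collected in 17 fractions, with RNA pooled from fractions 2 to 8 as the RNP sample and from fractions 11 to 17 as the polysome sample, per the labels' protocols. The labels number the arrays of each fraction as biological replicates 1 to 3 and do not say how many animals each one holds. Part of the scatter between replicates may thus be technical. A p-value here weighs a difference against the scatter within all 6 groups of fraction and age, 18 arrays fitted together. The same design at 22 days and in adults has 3 arrays per fraction and age. It is used below to show where the 17-day difference departs from the other ages. Those arrays also enter the intensity filter and the shared estimate of scatter behind each 17-day standard error and p-value.

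A messenger ribonucleoprotein particle (RNP) is an mRNA with its bound proteins and without a row of ribosomes, so it sediments slowly. A polysome is an mRNA read by several ribosomes and sediments fast. Male germ cells are known for making many mRNAs of sperm proteins early and keeping them in RNPs until spermatid development calls for the protein. In testes of this age the first wave of germ cells has reached meiosis, and spermatids, the haploid cells that become sperm, have barely begun to form.

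Values are intensities scaled to the same mean on every array, so the side on which a transcript lies is relative to the other transcripts of its fraction. Differences are RNP minus polysome on the scale log2(intensity + 15), with the standard error of the limma model (± SE, n = 3 arrays per group) and limma p-values after Benjamini-Hochberg adjustment over all probe sets tested. A transcript is called at an adjusted p under 0.05. The added constant understates the change of dim transcripts. Of 14066 probe sets bright enough to test, 1772 (12.6%) were higher in RNPs and 2272 (16.2%) higher on polysomes. With 1 probe set for each of 8713 genes the counts were 1152 (13.2%) and 1424 (16.3%), of which 729 (8.37% of all genes) and 787 (9.03%) differed by at least 2-fold. The RNP share of all called probe sets was 43.8%, but 49.6% after quantile normalization (1899 and 1926) and 56.3% after median centring (2152 and 1672). These scalings moved the median difference of all genes from -0.07 to 0.02 and 0.05. The total of 4044 calls (28.8%) was 4965 when only the 17-day arrays were fitted. It was 6108 with the replicate number as a block and 2628 without polysome array 3. The gene counts were then 1700 in RNPs and 2138 on polysomes with the block, and the polysome count was 932, 904 and 924 without polysome array 1, polysome array 3 and RNP array 3. Every gene named below as called kept its call in the 16 alternatives of scaling, filter, model and left-out 17-day array in which it was tested, unless the text says otherwise. The replicates of a fraction correlated at 0.928 to 0.979 on polysomes and at 0.942 to 0.981 in RNPs, against 0.802 to 0.879 between fractions.

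The largest RNP excess belonged to C8b, which encodes a chain of the complement membrane attack complex. It measured 5.20, 2.20 and 2.40 on polysomes and 231, 212 and 232 in RNPs. The 2 ranges did not overlap, and the polysome values were near 0, so its difference of 3.72 ± 0.29 (adjusted p = 3.2e-07) rests on an RNP mean of 225 ± 11.5 (SD). Fhl4, a LIM domain protein of the testis, measured 123, 226 and 130.1 on polysomes and 2193, 1456 and 2296 in RNPs. Every RNP array was above every polysome array, a difference of 3.53 ± 0.34 or 11.6-fold (adjusted p = 1.68e-06). Hoxa4, a homeobox gene with a testis-specific transcript, was at 51.8, 48.1 and 56.0 against 766, 520.1 and 909. All RNP arrays lay far above all polysome arrays, a difference of 3.44 ± 0.22 (adjusted p = 3.23e-08). Among the 15 largest RNP differences were also Phkg2, the catalytic subunit of phosphorylase kinase in testis and liver (3.04 ± 0.26), Tmem97 (3.01 ± 0.44), the integrin gene Itgae (3.16 ± 0.36), the acyltransferase gene Plaat1 (3.13 ± 0.26), the monocarboxylate transporter gene Slc16a7 (2.96 ± 0.55), Dgcr6 (3.02 ± 0.30) and Ppp1r14bl (2.95 ± 0.25).

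One of the brightest transcripts of the RNP fraction was much dimmer on polysomes. Phf7, a histone reader that promotes male germ cell fate and histone exchange, measured 713, 1063 and 670.1 on polysomes and 5903, 6609.9 and 5480.2 in RNPs. All RNP arrays were far above all polysome arrays, a difference of 2.88 ± 0.18 (adjusted p = 3.23e-08). It was among the 10 brightest named transcripts in RNPs, with Rpl41, Pebp1, Ldhc, Eef1a1, Tpt1, Rps28, Pabpc1, Rps29 and Tmsb10. Of the others, Rpl41 (1.78), Tpt1 (0.85), Rps28 (0.87), Pabpc1 (0.76) and Ldhc (0.32) were called, as were Rps29 (0.92) and Tmsb10 (0.84). Pebp1 (0.34) and Eef1a1 (0.36) did not pass, but did with the replicate block (adjusted p of 0.0248 and 0.0113). Rps28, Pabpc1 and Ldhc lost their calls under quantile normalization (adjusted p of 0.0564, 0.128 and 0.198). At the top of the polysome fraction by intensity, Sin3b, a scaffold of a histone deacetylase complex, was called (-1.21 ± 0.23), with 3969, 3732 and 3851 on polysomes and 1407, 2282 and 1404 in RNPs. The chaperone Hsp90aa1 was called with a smaller difference (-0.67 ± 0.18) and lost its call without RNP array 2 (adjusted p = 0.0559). Actb, Cct3, Cox6c, Pabpn1 and Rpl7a, which are among the 10 brightest there, differed by -0.33, -0.28, -0.26, -0.17 and 0.24 and did not pass. Under quantile normalization Actb, Cox6c, Cct3 and Pabpn1 passed (adjusted p of 3.77e-05, 0.000454, 0.000609 and 0.00312), and with the replicate block Actb did (0.0492).

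Taking the brightest probe set of each gene, the largest polysome excess belonged to Espn, espin, which bundles actin at the junctions of Sertoli cells with germ cells. It measured 217, 243 and 177 on polysomes and 13.7, 32.0 and 4.40 in RNPs. The fractions did not overlap and differed by -2.93 ± 0.37 (adjusted p = 2.46e-05). Uba1y, the Y-linked ubiquitin-activating enzyme, followed with 534, 430.0 and 499.8 on polysomes and 65.9, 70.9 and 65.8 in RNPs, values that varied little within a fraction (-2.60 ± 0.29). Among the 15 largest polysome differences, the G-quadruplex helicase gene Dhx36 stood at -2.41 ± 0.39, the nucleolar gene Esf1 at -2.29 ± 0.32, the spliceosome core gene Snrpd3 at -2.28 ± 0.36, the general transcription factor gene Taf7 at -2.47 ± 0.34, the histone demethylase gene Kdm5a at -2.28 ± 0.34 and the chromatin protein gene Hmgb2 at -2.24 ± 0.30. The others of the 15 were Ptgr1, the ubiquitin ligase gene Herc2, the kinase gene Jak1, the tropomyosin gene Tpm2, Gsta4, Anxa5 and Aifm1, from -2.40 to -2.25.

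**Figure D1:**
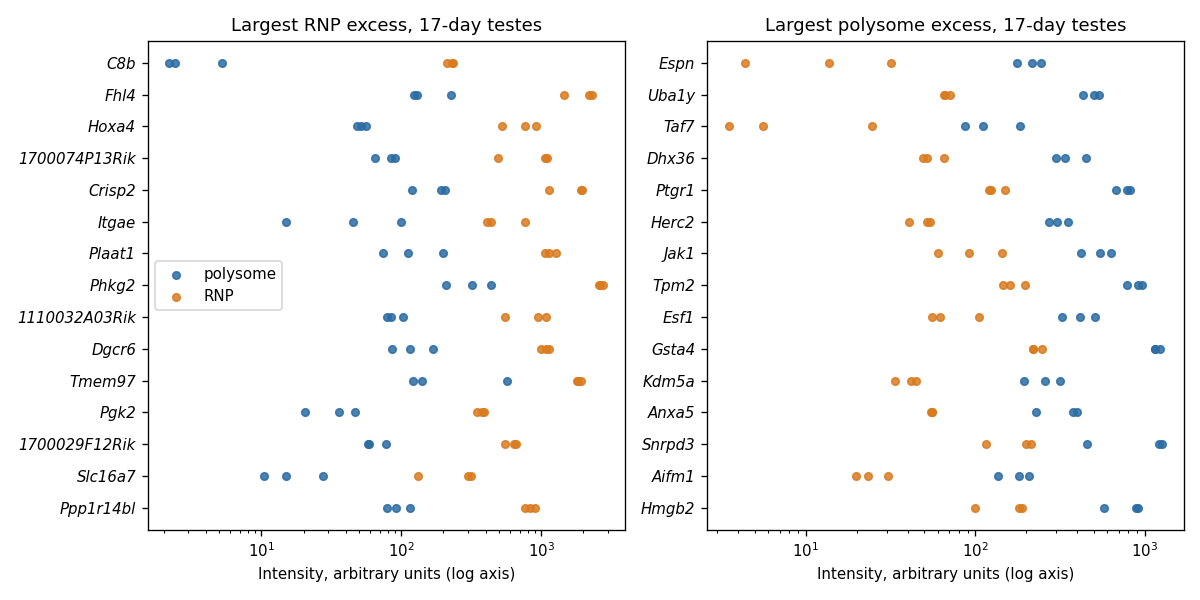
Intensity of the 15 genes with the largest difference on each side, on a log axis, with 1 point per array (blue polysome, orange RNP, n = 3 each). In all 30 genes the 3 arrays of one fraction lie above the 3 of the other, an order that the rule for naming them required.

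Enzymes that exist in a germ cell form and a widespread form lay on opposite sides for phosphoglycerate kinase and phosphoglycerate mutase. Pgk2, the phosphoglycerate kinase that replaces X-linked Pgk1 in germ cells, measured 35.6, 46.7 and 20.6 on polysomes and 392, 347 and 378 in RNPs. Pgk1 measured 846, 626 and 700.0 on polysomes and 223, 272 and 170.1 in RNPs. The ranges of each gene did not overlap, and the differences were 3.01 ± 0.33 for Pgk2 and -1.66 ± 0.28 for Pgk1. Pgam2, the muscle and sperm form of phosphoglycerate mutase, was at 399.7, 598 and 392 against 2152, 2741 and 2315 and lay in RNPs (2.36 ± 0.22). Pgam1, the widespread form, was at 725, 743 and 791 against 324, 286 and 323 and lay on polysomes (-1.24 ± 0.25). Each of these 4 genes kept its call in all 16 alternatives. The lactate dehydrogenase subunits split in another way, since Ldha (1.82 ± 0.21) was higher in RNPs, Ldhb (-2.14 ± 0.34) higher on polysomes, and Ldhc, the germ cell subunit, measured 5871, 5201 and 5512 against 6649.5, 7156 and 6873. The fractions of Ldhc differed by 0.32 ± 0.11, a call that ended in 10 of the 16 alternatives, among them the omission of any of the 6 arrays. Under quantile normalization its difference had the opposite sign (-0.17).

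In the other pairs and families, 1 form, several forms or none were called. Papolb, the poly(A) polymerase of spermatids, was higher in RNPs (1.75 ± 0.39) while Papola differed by 0.40 ± 0.37. Tbpl1, a TBP relative needed in spermatids, was higher in RNPs at 597, 500.5 and 542 against 2249, 1571 and 2257 (1.85 ± 0.35), and TBP itself (Tbp) differed by 0.28 ± 0.26. Pdha2, the intronless testis form of the pyruvate dehydrogenase subunit, was a germ cell gene on the polysome side (-0.91 ± 0.22), with the X-linked Pdha1 at -0.22 ± 0.32. The HSP70 gene of meiosis, Hspa2 (-1.19 ± 0.30), lay on polysomes with the widespread Hspa8 (-1.55 ± 0.34), and Hspa1l differed by -0.02. Tubulins were called on polysomes for Tubb3 (-1.77 ± 0.21), Tubb5 (-1.09 ± 0.27) and Tubb4b (-0.88 ± 0.17). Cytochrome c was called for the somatic Cycs (-0.75 ± 0.26) and not for the testis form Cyct (0.30). Aldolase was called for Aldoa (-0.84 ± 0.27) and not for Aldoart1 (-0.02) or Aldoart2 (0.07). Mean units on polysomes and in RNPs were 1.03 and 0.8 for Aldoart1, 10.6 and 11.9 for Aldoart2, and 1.5 and 1.27 for Hspa1l. These lie under the added constant of 15, so differences near 0 show no side for these 3 genes. The call of Cycs did not survive the omission of any array (adjusted p from 0.0579 to 0.105), and that of Aldoa without any array but polysome array 2 (from 0.0503 to 0.122). Both also ended under median centring (0.0697 for Cycs and 0.0729 for Aldoa). In all, the call of Cycs ended in 8 of the 16 alternatives and that of Aldoa in 6. Cox6b2 (0.41), Cox6b1 (-0.81), Calr (0.73), Canx (0.39), Clgn (0.63), Gapdhs (-0.19) and H1f6 (0.56) did not pass, though Cox6b1 (0.00496) and Calr (0.0307) did with the replicate block. In all, 6 (19.4%) of the 31 measured genes were called in RNPs and 11 (35.5%) on polysomes, against 13.2% and 16.3% of all genes.

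**Figure D2:**
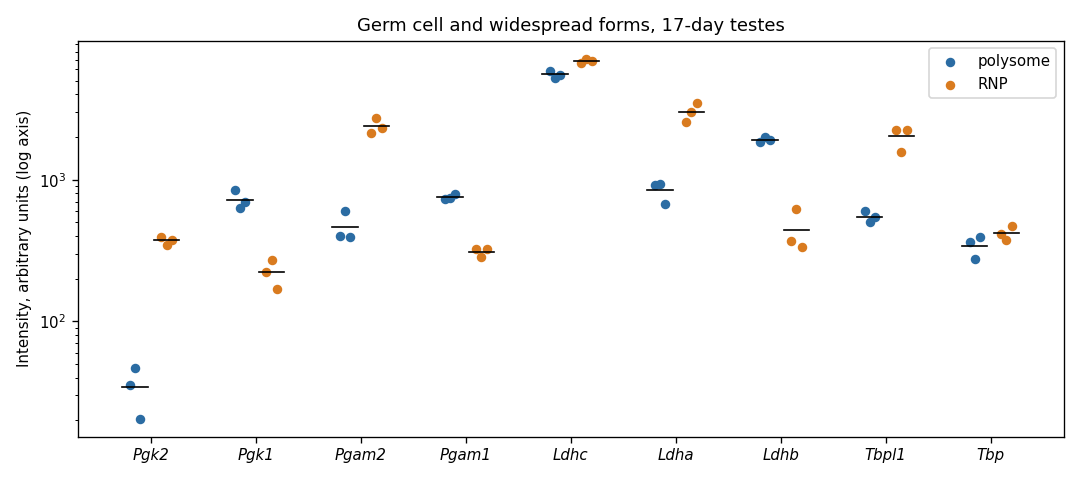
Intensity on a log axis of germ cell and widespread forms of 3 enzymes and of TBP, with 1 point per array (blue polysome, orange RNP) and a bar at the mean of 3 arrays. Pgk2 and Pgam2 are higher in RNPs and Pgk1 and Pgam1 higher on polysomes, while the fractions of Ldhc lie close together.

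Of 65 sperm tail genes listed, 40 were tested, and 14 were higher in RNPs, 1 was higher on polysomes and 25 were not called (13.2% and 16.3% over all genes), with a median difference of 0.39 against -0.07. In the axoneme, the motor of the tail, 7 of 10 tested genes were called in RNPs and 0 on polysomes, or 4 without RNP array 3. Meig1, which helps assemble the manchette and is needed for sperm formation, measured 481, 569 and 469.9 on polysomes and 1986, 2248 and 2356 in RNPs (2.09 ± 0.19), without overlap. The radial spoke gene Rsph9 (1.21 ± 0.24), Nme5 (1.50 ± 0.28) and Cfap36 (0.95 ± 0.24) and, among the dyneins, the light chain gene Dnal4 (1.79 ± 0.27) were called on the same side. Of the fibrous sheath and outer dense fibres, Odf2 measured 258, 208 and 223 on polysomes and 1395, 1064 and 1355 in RNPs. Its fractions were far apart (2.39 ± 0.30), as were those of Tcp11 (2.17 ± 0.22), which acts in sperm motility, and of the sheath gene Ropn1l (1.32 ± 0.15). The other 8 of these 11 genes, Odf1 and Akap4 among them, did not pass. Of 13 intraflagellar transport genes, which also serve cilia of other cells, 3 were called in RNPs, with Ift22 at 1.21 ± 0.29 and Ift20 at 0.81 ± 0.21, and 1 on polysomes, Bbs2 (-1.35 ± 0.41). The call of Bbs2 ended without polysome array 1 or 3 or RNP array 2 (adjusted p of 0.0575, 0.0704 and 0.112).

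For the acrosome, the secretory granule of the sperm head, and the sperm surface, 30 genes were tested. At the main threshold 10 (33.3%) were higher in RNPs and 0 on polysomes, against 13.2% and 16.3% of all genes (median 0.53). With the replicate block the counts were 14 and 2. Crisp2 measured 204, 191 and 119.8 on polysomes and 1938, 1138 and 1966 in RNPs, a gap of 3.17 ± 0.45. The acrosin gene Acr measured 169, 268 and 190.1 and 723, 759.5 and 797 (1.81 ± 0.27), and its fractions did not overlap. Spesp1 (1.60 ± 0.40), Zpbp (2.16 ± 0.43) and Dkkl1 (2.12 ± 0.46), all of the acrosome, and at the sperm surface Adam5 (2.40 ± 0.58) and Spa17 (1.41 ± 0.21) were called in RNPs. So was Dnajb3, a germ cell DNAJ chaperone (1.85 ± 0.27). Of the surface genes, 4 of 14 were called, and 2 without polysome array 3 or RNP array 3, when Adam2 (1.20 ± 0.34) and Adam3 (1.27 ± 0.47) lost their calls. Adam3 lost its call in 9 of the 16 alternatives. Acrv1 (-0.22), Eqtn (0.02), Spam1 (0.25) and Ace (-0.58) did not pass, and Ace did with the replicate block (0.0354). Mean units on polysomes and in RNPs were 1.97 and 2.3 for Eqtn and 3.37 and 6.97 for Spam1. These lie under the added constant of 15, so their small differences show no side. Acrv1, at 22.7 and 16.9, was close to that constant.

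Of 39 regulators of spermatid development, 15 (38.5%) were called in RNPs and 2 (5.13%) on polysomes, against 13.2% and 16.3% of all genes. The median was 0.42, and with the replicate block 4 were on polysomes. Among transcription factors the RNP side held Gtf2a1l, the germ cell subunit of TFIIA (2.12 ± 0.27), the testis bromodomain gene Brdt (1.57 ± 0.42) and Ovol1 (0.76 ± 0.22), besides Fhl4, Hoxa4 and Tbpl1. Taf7l, the X-linked germ cell partner of TFIID, went the other way at 636, 279 and 724 on polysomes and 182, 98.1 and 166 in RNPs (-1.71 ± 0.34). The ranges of Gtf2a1l (197, 476 and 249 against 1111, 1694 and 1168) and Taf7l did not overlap, and the genes had opposite signs in all 16 alternatives. Crem (0.07 ± 0.26), a master activator of spermatid genes, did not pass. Haspin, the histone H3 kinase, measured 177, 372 and 151 on polysomes and 1436, 1602 and 1573 in RNPs (2.75 ± 0.25). Ppp1cc, whose testis isoform is needed for sperm formation, was brighter and less unequal (0.87 ± 0.15). A dimmer probe set of the same gene differed by -0.47 ± 0.23 and did not pass, though it did with the replicate block (0.0312). Spata4 (2.51 ± 0.26) and the ubiquitin-conjugating genes Ube2d2b (2.48 ± 0.32) and Ube2j1 (1.91 ± 0.23) were in RNPs, and the ubiquitin ligase gene Rnf8, which acts in histone removal, was on polysomes (-0.97 ± 0.21). Of the kinases and phosphatases 4 of 16 were called in RNPs, 7 with the replicate block and 2 without polysome array 1.

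The chromatin condensation genes of late spermatids gave no call in 8 tested, with a median of 0.11 and differences from -0.12 to 0.56. The summed intensity of these 8 genes ran from 65.0 to 130.0 on polysomes and from 89.0 to 150.0 in RNPs, so these transcripts were dim in both fractions at this age.

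**Figure D3:**
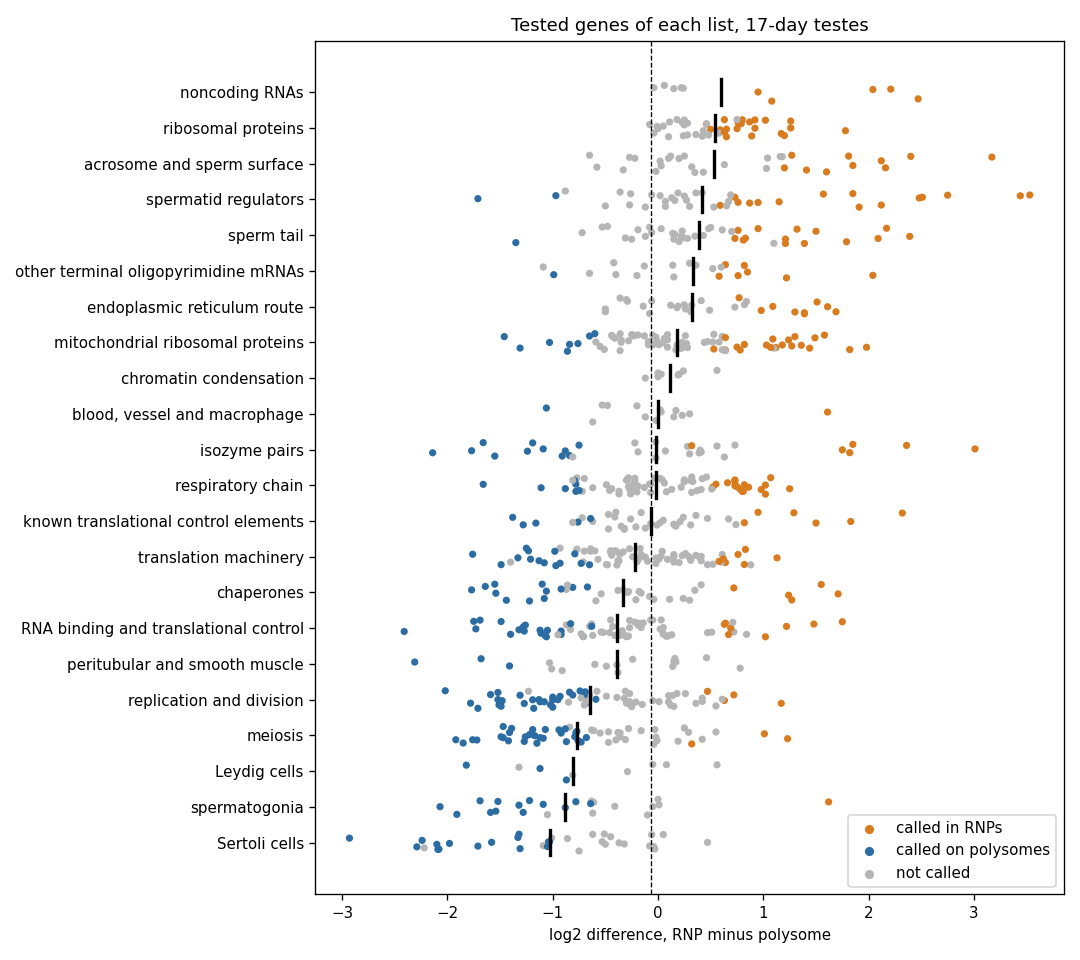
Log2 difference (RNP minus polysome) of every tested gene of 22 lists, with 1 point per gene, orange where called in RNPs, blue where called on polysomes and grey otherwise. Black bars mark list medians and the dashed line the median of all 8713 genes, -0.07, with sperm tail, acrosome and ribosomal protein lists to its right and meiosis, division, spermatogonia and Sertoli lists to its left.

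Genes of meiosis were called on polysomes more often than in RNPs. Of 54 tested, 29 (53.7%) were higher on polysomes and 3 (5.56%) higher in RNPs, against 16.3% and 13.2% of all genes. The median was -0.77, and with the replicate block 5 were in RNPs. Dmc1, the meiotic recombinase, measured 256, 122 and 276 on polysomes and 54.9, 38.2 and 60.2 in RNPs. Its fractions did not overlap (-1.76 ± 0.34). Recombination gave 15 of 24 calls on polysomes, among them Topbp1 (-1.92 ± 0.41), Tex15 (-1.85 ± 0.47), Atm (-1.47 ± 0.25), Brca1 (-1.22 ± 0.28), Exo1 (-0.79 ± 0.20) and Rad50 (-0.68 ± 0.18). One recombination gene opposed them, Psmc3ip, whose protein HOP2 assists Dmc1, with 619, 549 and 617 on polysomes and 1303, 1330.0 and 1619 in RNPs (1.23 ± 0.21). The synaptonemal complex genes Sycp1 (-1.41 ± 0.37), Sycp3 (-1.12 ± 0.25) and Trip13 (-1.26 ± 0.33) and the cohesin genes Rec8 (-1.39 ± 0.30), Smc3 (-1.17 ± 0.24) and Smc1a (-0.87 ± 0.20) were on polysomes. Among cyclins and kinases of the meiotic divisions, Cdk1 (-1.15 ± 0.24), Bub1 (-1.27 ± 0.35) and Bub1b (-1.07 ± 0.23) were on polysomes, while Aurka, the spindle pole kinase, was at 426, 532 and 428 against 833, 1254 and 796 and lay in RNPs (1.01 ± 0.23).

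Of 68 genes of DNA replication and division, 29 (42.6%) were on polysomes and 4 (5.88%) in RNPs, against 16.3% and 13.2% of all genes. The median was -0.65. Without RNP array 3 the counts were 19 and 1, and the RNP count was 1 or 2 without any other array. The helicase subunit gene Mcm3 measured 639, 586 and 714 on polysomes and 150.2, 151 and 142 in RNPs (-2.02 ± 0.25), without overlap. Mcm4 (-1.18 ± 0.25), Mcm5 (-1.48 ± 0.26) and Mcm6 (-1.52 ± 0.38) of the same ring were called too, and Mcm2 (-1.51 ± 0.42) until RNP array 3 was left out (adjusted p = 0.0633). Mcm7, the remaining member, had the opposite sign (0.47 ± 0.16), with a call that ended in 8 of the 16 alternatives, quantile normalization among them (0.7). Gins4, another part of the replicative helicase, was also in RNPs (1.17 ± 0.25). The ligase Lig1 (-1.78 ± 0.26), Dut (-1.71 ± 0.30), Pcna (-1.13 ± 0.16), the maintenance methyltransferase Dnmt1 (-1.27 ± 0.20), Top2a (-1.52 ± 0.30), Cenpe (-1.49 ± 0.26) and Ndc80 (-1.02 ± 0.25) were on polysomes.

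Markers of spermatogonia and of Sertoli cells were called on polysomes as well. Of 23 spermatogonial genes tested, 13 (56.5%) were on polysomes and 1 (4.35%) in RNPs, against 16.3% and 13.2% of all genes (median -0.88). Stra8, the switch into meiosis, measured 697, 477 and 707 on polysomes and 142, 154 and 113 in RNPs (-2.07 ± 0.23), and Uchl1 measured 841, 634 and 842 and 197, 198 and 183 (-1.91 ± 0.26). Both had fractions that did not overlap. Foxo1 (-1.28 ± 0.32), Ccnd2 (-1.59 ± 0.30), Dmrt1 (-1.32 ± 0.30), Tex14 (-1.22 ± 0.31) and the de novo methyltransferases Dnmt3a (-0.88 ± 0.20) and Dnmt3b (-1.09 ± 0.22) were called on the same side. Dmrtb1, a relative of Dmrt1 that governs the exit from spermatogonial divisions, was the 1 called in RNPs, at 251, 366 and 271 against 793, 1221 and 830.4 (1.62 ± 0.24). Of 33 Sertoli cell genes 15 (45.5%) were on polysomes and 0 in RNPs (median -1.03), and 21 and 0 with the replicate block. They included the transcription factor genes Sox9 (-1.03 ± 0.24), Gata1 (-1.31 ± 0.29), Nr0b1 (-2.24 ± 0.24) and Rhox5 (-1.58 ± 0.29), the receptor gene Amhr2 (-2.09 ± 0.35), the protease gene Ctsl (-2.08 ± 0.48) and Inha, the inhibin alpha chain (-1.33 ± 0.31). The summed intensity of the Sertoli genes ran from 16606 to 24038 on polysomes and from 6975 to 8405 in RNPs.

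Of 9 Leydig cell genes tested, 3 (33.3%) were on polysomes, against 16.3% of all genes, and 1 without polysome array 3. Cyp11a1, the first enzyme of steroid synthesis, stood at -1.82 ± 0.48 and lost its call without RNP array 1 (adjusted p = 0.054), and Star differed by -0.05. Of 17 peritubular and smooth muscle genes, 3 contractile genes were on polysomes, Tpm2 (-2.31 ± 0.34), Myl9 (-1.68 ± 0.34) and Acta2 (-1.41 ± 0.36), and 0 in RNPs, with 6 and 1 under the replicate block. The share of 17.6% on polysomes is near the 16.3% of all genes. The collagen genes Col1a1 (0.78) and Col3a1 (0.46) did not pass, and Col1a1 did with the replicate block (0.0176). Among 14 genes of blood, vessel and macrophages the class II gene H2-Ab1 was in RNPs (1.61 ± 0.34) and C1qc on polysomes (-1.06 ± 0.37). No omission of an array left the call of C1qc standing (adjusted p from 0.0619 to 0.108). It ended in 11 of the 16 alternatives, among them quantile normalization (0.0753) and median centring (0.0562). In RNA of whole testes, fewer cells of a type and less RNA per cell cannot be told apart, and a difference between fractions is a mean over all cell types that hold the transcript.

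The X chromosome held few genes on the RNP side. Of 263 X genes tested, 100 (38.0%) were higher on polysomes and 4 (1.52%) higher in RNPs, with a median of -0.54. Without polysome array 3 the RNP count was 2. Over 8433 autosomal genes the shares were 15.6% and 13.6% and the median was -0.06. By chromosome, the 19 autosomes ranged from 13.5% to 19.2% on polysomes and from -0.18 to -0.01 in their medians, and the X lay outside both ranges. These counts describe the chromosome, which was picked out after its values had been seen, and no test was made of it. The X is known to be silenced during meiosis in male germ cells. Markers of spermatogonia and Sertoli cells lay on the same side, with medians of -0.88 and -1.03 and 13 of 23 and 15 of 33 genes on polysomes, and their part in the X result was not tested. With X genes on the marker, meiosis or division lists left out, 93 of 253 were on polysomes (median -0.53). Among 62 X genes with a mean of at least 200 units, 34 (54.8%) were on polysomes and 2 (3.23%) in RNPs, against 18.8% and 22.3% of 3607 autosomal genes with such a mean.

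The X genes called on polysomes ranged from Aifm1, a mitochondrial flavoprotein (182, 206 and 135 against 23.4, 30.6 and 19.9, -2.25 ± 0.34), to genes just over the threshold. Maged1 measured 929, 1096 and 865 on polysomes and 207, 318 and 134 in RNPs. Its fractions were well apart (-2.13 ± 0.40), as were those of the cytoplasmic deacetylase gene Hdac6 (-1.89 ± 0.33), the ubiquitin ligase gene Huwe1 (-1.78 ± 0.31), the coactivator gene Cited1 (-1.79 ± 0.34), Tsx (-1.73 ± 0.27), Rbbp7 (-1.53 ± 0.34), the nucleotide carrier gene Slc25a5 (-1.52 ± 0.26) and Hprt (-1.37 ± 0.23). X genes that act in germ cells before the X is silenced were there too, with Tex11 at -1.72 ± 0.27, Nxf2 at -1.54 ± 0.30, Sox3 at -1.44 ± 0.23, Scml2 at -1.42 ± 0.32 and Esx1 at -1.40 ± 0.22. The 4 in RNPs were Rps4x (1.26 ± 0.32), Alas2 (1.50 ± 0.18), Irak1 (1.51 ± 0.40) and Smpx (0.95 ± 0.34). Rps4x measured 939, 554 and 768 on polysomes and 2305, 1165 and 2114 in RNPs, with no overlap. The call of Irak1 ended without polysome array 3 (adjusted p = 0.0533), and that of Smpx in 7 of the 16 alternatives. Of 5 Y genes tested, 4 were on polysomes, against 16.3% of all genes: Uba1y, Zfy2 (-1.51 ± 0.36), Eif2s3y (-1.33 ± 0.39) and Usp9y (-1.14 ± 0.31). Zfy2, Eif2s3y and Usp9y were dim, with means of 78.9, 79.4 and 100 units on polysomes and 18.3, 22.4 and 38.0 in RNPs. The call of Eif2s3y ended without polysome array 1 or 3 or RNP array 2 (adjusted p of 0.0639, 0.0716 and 0.0716) and with a pseudocount of 1 intensity unit, and that of Usp9y without RNP array 3 (0.0583).

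**Figure D4:**
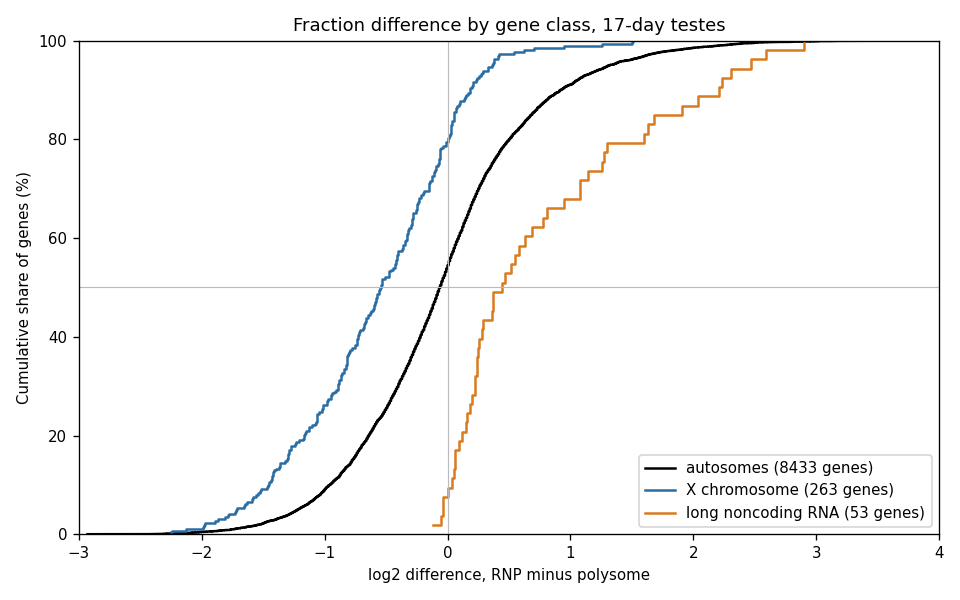
Cumulative share of genes by log2 difference (RNP minus polysome) for 8433 autosomal genes, 263 X genes and 53 genes of the long noncoding RNA biotype. The X curve runs to the left of the autosomal curve, with medians of -0.54 and -0.06, and the noncoding curve to the right, with a median of 0.44.

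All calls among long noncoding RNAs, which have no protein to make, were in RNPs. Of 53 tested genes of that RefSeq biotype, 21 (39.6%) were higher in RNPs and 0 higher on polysomes, against 13.2% and 16.3% of all genes. The median was 0.44 against -0.07, and with the replicate block the counts were 24 and 0. The class was dim, with median levels of 52.6 units on polysomes and 82.5 in RNPs, against 157 and 140 over all genes. The 5 host genes of small nucleolar RNAs were all called. Gas5 measured 111, 136 and 77.6 on polysomes and 533, 389 and 534 in RNPs (2.04 ± 0.25), and Snhg8 measured 73.2, 144 and 51.9 and 413, 438 and 469 (2.21 ± 0.32). Neither had fractions that overlapped. Snhg6 (2.47 ± 0.45), Snhg1 (1.08 ± 0.22) and Snhg5 (0.95 ± 0.25) were the others, and the call of Snhg5 ended without RNP array 1 (adjusted p = 0.0503). Outside the host genes, 16 of 48 were called in RNPs, with the largest differences at 3110070M22Rik (2.90 ± 0.28), 1700097N02Rik (2.59 ± 0.36) and 1810044D09Rik (2.31 ± 0.25). Norad, which binds PUMILIO proteins, was at 556, 546 and 585 against 1290.5, 640.0 and 1202 (0.81 ± 0.28), a call that ended without any array but RNP array 2 (adjusted p from 0.076 to 0.155). Xist (-0.04), Neat1 (0.22), Meg3 (0.06) and Tug1 (0.24), which act in the nucleus, did not pass.

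Messenger RNAs of ribosomal proteins begin with a run of pyrimidines, the terminal oligopyrimidine tract, through which cells hold them off ribosomes when growth signals fall. The 30-base windows around RefSeq start sites (GRCm38.p6), on the sense strand from 12 bases before the start to 18 after it, show in capitals a run of C and T that lies at least in part within the annotated transcript. The first 5 genes were called in RNPs and the last 4 were not, to show that such a run stands in both.
Rps18 (chr17:33955648-33955677, minus strand): gtcacttccgCTCTCTCTTCCacaggaggc
Rps24 (chr14:24490666-24490695, plus strand): gcgctggggTCCTTCCTTgcgcgttgatat
Rplp2 (chr7:141447639-141447668, plus strand): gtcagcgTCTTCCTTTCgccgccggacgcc
Rpl13a (chr7:45128728-45128757, minus strand): accctgcgacaagaCCTCCTCCTTTCCCag
Rpl38 (chr11:114668568-114668597, plus strand): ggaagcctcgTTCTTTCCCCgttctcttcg
Rps10 (chr17:27635227-27635256, minus strand): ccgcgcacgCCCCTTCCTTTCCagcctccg
Rps6 (chr4:86857350-86857379, minus strand): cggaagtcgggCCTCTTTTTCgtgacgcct
Fau (chr19:6057935-6057964, plus strand): gcgcccccaCTTCTTCCTCTTTCTTgactc
Eef1a1 (chr9:78481707-78481736, minus strand): ggctccgCCCTCTTCCCgagggtgggggag
The 5 genes called in RNPs differed by 0.65, 0.63, 0.46, 0.63 and 0.50, and under quantile normalization none of them passed (adjusted p from 0.367 for Rps18 to 0.913 for Rplp2). The calls of Rpl13a, Rpl38, Rplp2 and Rps24 ended in 6, 7, 3 and 3 of the 16 alternatives. Rps10, Rps6, Fau and Eef1a1 differed by 0.23, 0.05, 0.48 and 0.36, and Fau passed with the replicate block (0.00754). A run of at least 8 letters that were all C or T, on the sense strand, touched the stretch from 10 bases before to 15 bases after the start in 20 of 39 ribosomal protein genes with a promoter entry (51.3%), against 17.6% of 27025 genes in the table and 19.1% of 7093 tested genes. It was found in 9 of 20 ribosomal protein genes called in RNPs and in 11 of 19 not called. RefSeq starts can differ from the start used in testis, so a window without a run says nothing of the transcript.

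Among ribosomal protein genes, 22 of 44 tested lay in RNPs and 0 on polysomes, against 13.2% and 16.3% of all genes. Of autosomal genes with a mean of at least 200 units, 22.3% were in RNPs and 18.8% on polysomes. The median of the ribosomal protein genes was 0.54. Quantile normalization gave 10 calls and a median of 0.20. Rpl41 measured 1501, 4518 and 1766 on polysomes and 8111, 9005 and 6731 in RNPs (1.78 ± 0.37), the largest difference of the list. Rplp0, of the ribosomal stalk, measured 2108, 2024 and 1926 and 4866, 3974 and 4859 (1.17 ± 0.23), and Rpsa, also a laminin receptor, 1514, 2211 and 1443 and 3829, 4658 and 3782 (1.26 ± 0.25). None of these 3 had overlapping fractions, and all kept their calls under quantile normalization, as did Rps20 (1.20 ± 0.20), Rps27l (1.02 ± 0.21), Rps29 (0.92 ± 0.15) and Rps7 (0.89 ± 0.13). Rpl39l, the germ cell copy of Rpl39, was called (0.80 ± 0.14) and Rpl39 was not (0.18 ± 0.19). Rps6 at 42.7, 22.5 and 53.3 against 46.6, 19.8 and 62.1 (0.05 ± 0.35), Rps3 (-0.08 ± 0.20) and Rpl12 (-0.01 ± 0.31) overlapped between the fractions and did not pass. Large subunit calls fell from 10 to 4 without polysome array 3 or RNP array 2, and to 6 without RNP array 3. Ribosomal protein genes have many processed pseudogenes, whose transcripts a probe set may share.

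Of 20 other genes listed as known for such tracts, 7 (35.0%) were in RNPs and 1 (5.0%) on polysomes (median 0.33). All genes gave 13.2% and 16.3%. The counts of the list were 4 and 2 after quantile normalization and 10 and 4 with the replicate block. Without polysome array 2 or RNP array 3, 4 were in RNPs. A run was found in 7 of the 15 with a promoter entry (46.7%). Tpt1, a growth-regulated protein, measured 3972, 3611 and 3285 against 7037, 6225 and 6389 (0.85 ± 0.12), without overlap. Eef1b2, an exchange factor of elongation, was at 0.82 ± 0.19 and Btf3 at 1.22 ± 0.35, with the call of Btf3 ending without polysome array 2 or RNP array 3 (adjusted p of 0.0763 and 0.0721). The elongation factor genes Eef1a1 (0.36 ± 0.27) and Eef2 (0.52 ± 0.30) did not pass, and did with the replicate block (0.0113 and 0.00874). Nap1l1, a histone chaperone with a run of 8 pyrimidines at its start, opposed them (-0.99 ± 0.28), with a call that ended without RNP array 2 (0.0672).

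Genes of mitochondrial ribosomal proteins were called in both directions. Of 75 tested, 20 (26.7%) were in RNPs and 8 (10.7%) on polysomes, against 13.2% and 16.3% over all genes (median 0.18), and the polysome count was 4, 5, 3, 4 and 4 without polysome arrays 1, 2 and 3 and RNP arrays 1 and 3. Mrpl55 measured 192, 272 and 199 on polysomes and 785, 1134 and 827 in RNPs (1.98 ± 0.24), and Mrpl46 measured 638, 687 and 568 and 179, 256 and 229 (-1.46 ± 0.22). These subunits of 1 particle thus lay apart in opposite directions, each without overlap. Mrpl42 (1.82 ± 0.28), Mrpl57 (1.49 ± 0.22) and Mrps15 (1.36 ± 0.25) went with Mrpl55, and Mrpl3 (-1.31 ± 0.19) and Mrps9 (-0.86 ± 0.20) with Mrpl46. Of 71 respiratory chain genes 17 (23.9%) were in RNPs and 7 (9.86%) on polysomes, but 11 and 21 after quantile normalization, 17 and 3 after median centring and 20 and 17 with the replicate block. The RNP count was 11 without polysome array 3 or RNP array 2, and the polysome count was 2 or 3 without any array but polysome array 2 or RNP array 2. Complex I showed both sides in genes that kept their calls throughout, with Ndufa6 (1.25 ± 0.20), Ndufa3 (1.02 ± 0.24) and Ndufc1 (0.98 ± 0.19) in RNPs and Ndufa4 (-1.66 ± 0.26) and Ndufb3 (-0.78 ± 0.20) on polysomes.

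Of 76 initiation, elongation and aminoacyl-tRNA synthetase genes, 7 (9.21%) were in RNPs and 14 (18.4%) on polysomes (median -0.22), shares not far from those of all genes (13.2% and 16.3%). With the replicate block the counts were 14 and 25. The RNP count was 3 or 4 without any of the 6 arrays, and the polysome count was 7, 6, 9 and 8 without polysome arrays 1 and 3 and RNP arrays 1 and 2. The 18 aminoacyl-tRNA synthetases, which load tRNAs with amino acids, gave 6 calls on polysomes and 0 in RNPs, or 10 and 1 with the block. Rars measured 448, 248 and 471 on polysomes and 136, 79.8 and 90.6 in RNPs (-1.76 ± 0.29). Lars (-1.49 ± 0.22), Tars (-1.21 ± 0.26) and Nars (-0.97 ± 0.24) were called beside it, and Aars (0.23) and Kars (0.31) were not. Eif2s2, the beta subunit of initiation factor 2, was on polysomes (-0.79 ± 0.20), as was the release factor gene Gspt1 (-1.23 ± 0.29). Eif4ebp2, which blocks cap-dependent initiation, was in RNPs (1.13 ± 0.28), with Eif4ebp1 at 0.09. The poly(A) binding protein gene Pabpc1 was among the brightest in RNPs, and its intronless testis relative Pabpc2 measured 227, 490.1 and 219 on polysomes and 1463, 2248 and 1550.3 in RNPs (2.50 ± 0.30), without overlap. These genes are close in sequence, so part of a signal may be shared.

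Genes of proteins that bind or silence mRNAs were called on polysomes more often than in RNPs. Of 70 tested, 20 (28.6%) were on polysomes and 8 (11.4%) in RNPs, against 16.3% and 13.2% of all genes (median -0.39). With the replicate block the counts were 29 and 13, and without polysome array 3 they were 13 and 4. The RNP count was 3 without polysome array 2, RNP array 1 or RNP array 3, and 5 without polysome array 1. Dazl, which promotes translation in germ cells, measured 2287, 2366 and 2455 on polysomes and 727, 765 and 674 in RNPs. All 3 polysome arrays were above all RNP arrays (-1.69 ± 0.26). Cpeb1, which controls poly(A) tails (-1.28 ± 0.21), the small RNA enzyme Dicer1 (-1.75 ± 0.31) and its partner Prkra (-1.40 ± 0.23), the Fmr1 relative Fxr2 (-1.73 ± 0.45), and in the piRNA pathway Piwil1 (-1.27 ± 0.20) and Asz1 (-1.49 ± 0.32) were on polysomes. Ybx1, a Y-box protein that coats mRNA in RNPs, was the bright exception at 1684, 2137 and 1524 on polysomes and 4584, 5556 and 4723 in RNPs (1.48 ± 0.17). The germ cell Y-box genes Ybx2 (0.72 ± 0.28) and Ybx3 (0.47 ± 0.18) did not pass, and did with the replicate block (0.0012 and 0.00636). Tarbp2, which binds Dicer and is needed for translation of stored mRNAs in spermatids, was in RNPs (1.22 ± 0.24), opposite to Prkra, its relative. The decay and repression genes Hnrnpd (-1.11 ± 0.22), G3bp2 (-1.05 ± 0.24) and Elavl1 (-0.92 ± 0.19) were on polysomes, and Ddx6 (-0.63), Fmr1 (-0.54), Ago2 (-0.46) and Xrn1 (-0.52) did not pass. With the replicate block the first 3 of these did (0.0425, 0.0321 and 0.0258).

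Of 39 genes known for control elements that act on translation, 6 (15.4%) were in RNPs and 5 (12.8%) on polysomes, near the shares of all genes (13.2% and 16.3%). The polysome count was 3 without polysome array 1 or 3 or RNP array 3 and 8 with the replicate block. Upstream reading frames keep ribosomes from the main reading frames of Atf4 and Ddit3 in unstressed cells. Ddit3 measured 119, 123 and 63.9 on polysomes and 554, 526 and 579 in RNPs (2.32 ± 0.25), and Atf4 measured 225, 265 and 188 and 628, 620.3 and 477 (1.29 ± 0.28), each without overlap. Of 24 genes in that group, which covers the stress response, these 2 (8.33%) were called in RNPs and 2 (8.33%) on polysomes, below the shares of all genes, and Ppp1r15a (-0.47), Atf5 (0.47) and Trib3 (0.05) did not pass. Cebpb was on polysomes (-1.38 ± 0.25). Iron-response elements hold ferritin mRNA off ribosomes when iron is scarce. Fth1, the ferritin heavy chain, measured 1403, 1058 and 1349 on polysomes and 5009.9, 3845 and 4792 in RNPs (1.83 ± 0.26), and Alas2, with an element of the same kind, measured 31.3, 31.2 and 35.6 and 126, 114 and 121 (1.50 ± 0.18). Both had every RNP array above every polysome array. Aco1, which binds that element, was on polysomes (-1.16 ± 0.26). The iron group as a whole leaned to neither side, since of 8 genes tested 2 were in RNPs, 2 on polysomes and 4 not called (median 0.02). In polyamine synthesis the decarboxylase gene Odc1 (0.95 ± 0.15) and the antizyme gene Oaz2 (0.82 ± 0.23) were in RNPs, and the antizyme inhibitor gene Azin1 was on polysomes at 401, 469 and 443 against 212, 122 and 193 (-1.28 ± 0.29).

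Of 35 chaperone genes 12 (34.3%) were on polysomes, 5 (14.3%) in RNPs and 18 not called (median -0.33), or 7 on polysomes without RNP array 2. Over all genes 16.3% were on polysomes and 13.2% in RNPs. Hspd1, the mitochondrial chaperonin (-1.77 ± 0.39), Hspa14 (-1.44 ± 0.25), Ahsa1 (-1.08 ± 0.25), Cct2 (-1.10 ± 0.22) and the prefoldin gene Pfdn2 (-1.64 ± 0.26) were on polysomes. Cct6b, the testis form of a CCT subunit, was in RNPs at 255, 242 and 294 against 802, 801 and 796 (1.55 ± 0.31), with Pfdn1 (1.24 ± 0.28), Bag1 (1.71 ± 0.20) and Dnajb1 (1.27 ± 0.23), while Cct6a differed by -0.54 ± 0.26 and passed with the replicate block (0.0158). Of 29 genes of entry into the endoplasmic reticulum 9 (31.0%) were in RNPs, 0 on polysomes and 20 not called (median 0.32), or 5 in RNPs without polysome array 3. They included the signal peptidase subunit gene Spcs1 at 914, 1361 and 771 against 3110.1, 3481 and 3098 (1.69 ± 0.20), Srp9 of the signal recognition particle (1.39 ± 0.23), and Stt3b (1.39 ± 0.25) and Krtcap2 (1.51 ± 0.34) of the oligosaccharyltransferase.

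Against the other ages, most of the 17-day pattern was not shown to differ. The fraction difference at 22 days minus that at 17 days passed the threshold for 0 of 14066 probe sets in limma, with 817 at an unadjusted p under 0.05, 203 past the adjusted threshold with the replicate block, 1 each with the pseudocount at the 50th percentile and without 17-day polysome array 2, and 91 without 22-day RNP array 2. The difference in adults minus that at 17 days passed for 164 probe sets, 107 (0.761%) toward polysomes and 57 (0.405%) toward RNPs, and for 1567 with the replicate block. Without polysome arrays 1 and 3 and RNP arrays 1, 2 and 3 of 17 days the count was 49, 53, 59, 103 and 60, and without adult polysome arrays 1 and 3 and adult RNP array 1 it was 272, 84 and 328. Some genes of sperm with a large RNP excess at 17 days were among the 107. Pgk2, Odf2 and Fhl4 were named for the size of that excess, a choice that by itself favours a smaller value at another age. Pgk2 stood at 3.01 at 17 days, 2.69 at 22 days and 0.61 in adults (adult minus 17 days -2.40 ± 0.47, adjusted p = 0.0187). Odf2 went from 2.39 through 1.97 to 0.45 (-1.94 ± 0.42, 0.0293) and Fhl4 from 3.53 through 2.11 to 1.50 (-2.03 ± 0.48, 0.0443). In adults Pgk2 and Odf2 did not pass (adjusted p of 0.157 and 0.238), while Fhl4 did. Over the alternatives the adjusted p of these 3 differences between ages reached 0.0676, 0.0840 and 0.125. Over the sperm tail list the median was 0.39 at 17 days, 0.32 at 22 days and 0.01 in adults, over the chromatin condensation list 0.11, 1.95 and 0.28, over the Sertoli list -1.03, -1.62 and -1.75, and over ribosomal proteins 0.54, 0.31 and 0.49. The comparisons of the 3 ages use different arrays of each fraction, and the adult and 22-day contrasts with 17 days share the 17-day arrays.

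**Figure D5:**
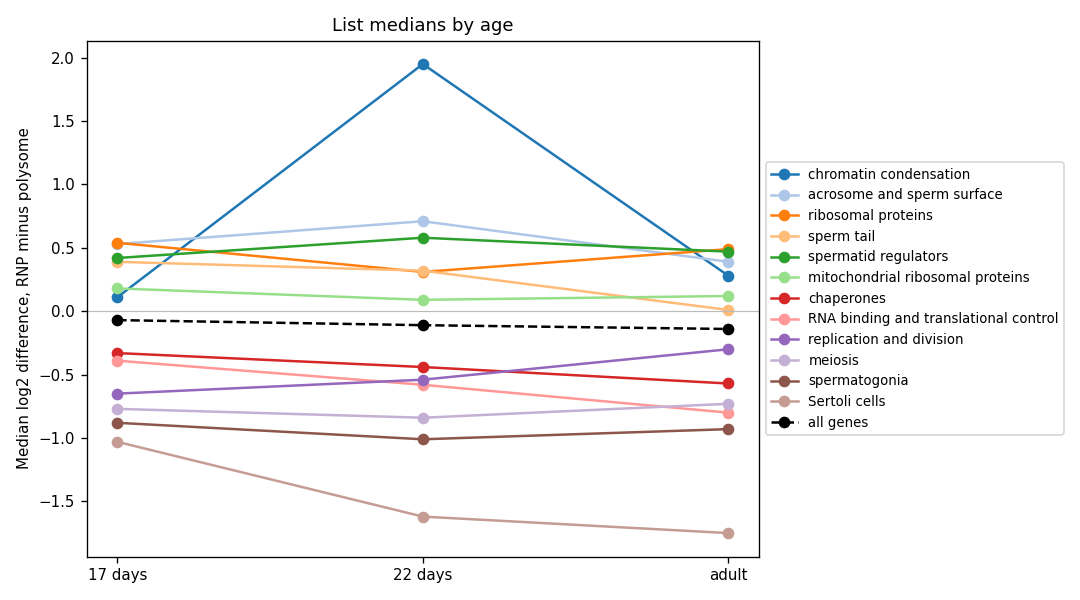
Median log2 difference (RNP minus polysome) of the tested genes of 12 lists and of all genes (dashed) at 17 days, 22 days and in adults, each age from 3 arrays per fraction. Points are medians over genes and carry no error bar; the chromatin condensation list is near 0 at 17 days and highest at 22 days, and the Sertoli list is lowest at every age shown.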

How the data were processed

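RNA of the RNP and polysome fractions of mouse testes at 17 days, 22 days and in adults was measured on 18 Affymetrix arrays, 3 per fraction and age. The values are intensities that the authors deposited after MAS5 summarisation, per the submitters' processing notes. For its version and scaling target nothing is given in the sources used here. At 17 days the arrays had a trimmed mean of 149.6 to 149.9 units and medians of 49.2 to 59.5, so only relative amounts within a fraction can be compared. A MAS5 table carries no read depth, and 3 arrays per group limit the precision (median SE of a gene 0.27).

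Each value was taken as log2(intensity + 15), with the 25th percentile over the whole table (15) as pseudocount. Probe sets above 51.6 units, the 50th percentile, on at least 3 of 18 arrays were tested, 14066 of 22626. A model with 6 groups was fitted in limma 3.58.1 (R 4.3.3) with a variance trend in eBayes, and p-values are two-sided and adjusted by Benjamini-Hochberg over all tested probe sets. The fits were checked on simulated data. Of the probe sets that are not controls, 20380 name 1 gene, 691 several and 1555 none, and 20351 of the first were found by Entrez ID in the RefSeq table. Genes are represented by the probe set with the highest mean over the 17-day arrays, and 8 of 2894 genes with several tested probe sets had some called in opposite directions. Named genes are the 15 largest differences per direction with a mean of at least 100 units in the higher fraction and no overlap, up to 4 per list role and direction, all isozyme pairs and the 10 brightest per fraction. Others were added after their values were seen, as were the X chromosome, the Y chromosome and the noncoding biotype. The comparison, its members and the lists were chosen with earlier results of these data known.

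Same-numbered arrays of the fractions deviated together (r = 0.31, 0.565 and 0.337), so the labels' numbers may pair the samples. The main model holds no block, and its standard errors and p-values leave such a pairing out. The fit with the number as a block is given where it changes a call. Since 2 other pairs, polysome 1 with RNP 3 and polysome 3 with RNP 1, correlated at 0.264 and 0.345, the pairing of these numbers is less certain. Alternatives were quantile normalization, median centring, other pseudocounts and filters, fits without the trend or of the compared arrays alone, and leaving arrays out.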

Additional observations from a re-analysis of the deposited data

Results flagged for a closer look

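The difference between fractions in adults departed from that at 17 days, by a limma interaction term with Benjamini-Hochberg adjustment, for 13 of the genes named above (adult minus 17 days, log2, ± SE, n = 3 arrays per fraction and age). Alas2 moved from 1.50 at 17 days to -0.27 in adults (-1.77 ± 0.26, adjusted p = 0.00264), and its adjusted p stayed at or below 0.0129 in every alternative. For the other 12 the adjusted p was under 0.05 in the main model and reached 0.0676 to 0.131 in at least 1 alternative. Toward polysomes with age went Pgk2 (-2.40 ± 0.47), Fhl4 (-2.03 ± 0.48), Odf2 (-1.94 ± 0.42), Pabpc2 (-1.82 ± 0.42), Ppp1r14bl (-1.65 ± 0.36), Haspin (-1.52 ± 0.36), Cfap36 (-1.45 ± 0.34), Pgam2 (-1.44 ± 0.31), Phf7 (-1.29 ± 0.26) and Ropn1l (-1.01 ± 0.21), all higher in RNPs at 17 days. Pgam1, on polysomes at 17 days (-1.24), stood further toward them in adults (-2.81, -1.58 ± 0.35). Esx1, on the X chromosome, went the other way, from -1.40 to 0.09 (1.49 ± 0.31, adjusted p = 0.0234). Cell types present differ between these ages, and their part in these differences was not tested. Where a gene was named for the size of its 17-day difference, that choice by itself favours a smaller difference in adults.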

How the results depend on the processing

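The 4044 probe sets called at 17 days were 6108 with the replicate block, in which no named gene lost its call and 15 gained one, and the block changed no other call of a named gene. Leaving out 1 array at a time gave 2628 to 3692, and leaving out both arrays of 17-day replicate 2 and of adult replicate 1 gave 4141. The 0 calls of 22 days minus 17 days became 1 with the pseudocount at the 50th percentile, 203 with the replicate block and 0 to 91 with 1 array left out. The 164 calls of adults minus 17 days (2115 at an unadjusted p under 0.05) became 1567 with the replicate block, 374 without both arrays of 17-day replicate 2 and of adult replicate 1, and 49 to 328 with 1 array left out. Of 231 named genes called, 26 lost the call in 1 or more of 16 alternatives. Quantile normalization reversed Ldhc (-0.17) and Rplp2 (-0.02). The medians of the blood, isozyme, control element and respiratory lists changed sign under some alternatives. That of the chromatin condensation list ran from 0.04 to 0.26. The scaling fixes only relative amounts, dim transcripts have understated folds, and 3 arrays per group limit every comparison.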

Other observations

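Array control probe sets outside the tested set differed between the fractions. The probe set of the B1 repeat, a short interspersed element carried in many transcripts, measured 1541, 1684 and 1475 units on polysomes and 6687, 6614 and 6391 in RNPs, with a ratio of 4.2. A B2 repeat probe set measured 4292, 4743 and 3566 on polysomes and 6424, 6551 and 6572 in RNPs, and a second one 206, 259 and 183 against 544, 446 and 471. In all 3 the RNP arrays lay above the polysome arrays, and the two-sided exact permutation p was 0.1, the smallest that 3 against 3 arrays allow. The Actb signal ratio of 3' to 5' probe sets was 1.96, 2.08 and 1.54 on polysomes and 2.41, 3.01 and 2.37 in RNPs (exact permutation p = 0.1), while that of Gapdh overlapped between the fractions (exact permutation p = 0.7). The poly-A control probe sets averaged 135, 491 and 106 on polysomes and 121, 458 and 110 in RNPs, so replicate 2 stood high in both fractions. These control values were not entered in any model.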
